A study of Octopus bimaculoides with 95 samples.

Results

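Gene expression in the stellate ganglion of the California octopus, Octopus bimaculoides, was compared with that in the proximal arm cord, taken next to the brachial crown from which the arms arise. The comparison holds 6 of the 95 libraries of the series, chosen by their tissue label alone: 3 labelled Stellate_Ganglion and 3 labelled Arm_Cord-Proximal_to_Brachial_Crown. They are called stellate 1 to 3 and arm cord 1 to 3 here. The labels give both groups as RNA from whole tissue and state no treatment, age or sex for either. All 6 belong to a table of 85 plate libraries, and a second table of 10 libraries holds 1 more stellate ganglion, 1 single stellate neuron and 1 brachial ganglion, which were used to look at the same genes by rank. Whether the 3 libraries of a tissue are 3 animals is not given in the labels, so a p-value here weighs a difference against spread among libraries that may be technical.

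The stellate ganglia lie on the inner wall of the mantle, 1 on each side, and their motor neurons drive the mantle muscle that an octopus uses to breathe and to jet. The arm cord is the chain of ganglia along the axis of an arm. It moves the muscles and suckers of the arm and takes in their touch and taste signals. Both tissues belong to the peripheral nervous system, outside the brain lobes that make up most of the plate. Whole-tissue RNA also holds glia, sheath, vessels and adjoining muscle or skin, and in such samples fewer cells of a type and less RNA per cell cannot be told apart. The files pair the gene IDs with no names, so genes are described by ID, level and distribution over tissues, and no role is given to them.

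Values are TPM, a read density scaled by transcript length and library total, with the ERCC spike-in RNAs taken out and each library rescaled to the full total. The 6 libraries differed widely in depth. Low TPM values were whole multiples of what 1 read is worth, which gave lower bounds of 5938052, 311052 and 227733 reads for stellate 1, 2 and 3 and of 1748241, 271016 and 5156713 reads for arm cord 1, 2 and 3. Spike-ins had taken 74.0%, 83.3% and 75.0% of the deposited TPM in stellate 2, stellate 3 and arm cord 2, and 12.98% to 40.6% in the other 3 libraries. A read was worth a median of 1.33 to 1.55 TPM in those 3 shallow libraries and 0.0763 to 0.253 TPM in the 3 deep ones.

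2 libraries stood apart from their tissue. Over all genes, the library labelled stellate ganglion 1 correlated best with skin (r = 0.908) and then with chromatophores 2 (r = 0.897), against 0.637 with stellate 2 and 0.636 with stellate 3. Stellate 2 and 3 correlated with each other at 0.868. Arm cord 2 was nearest to stellate 2 (r = 0.864) and correlated less with arm cord 1 (r = 0.781) and arm cord 3 (r = 0.760), which stood at 0.927 with each other. The order of these values followed depth as well as label: stellate 2, stellate 3 and arm cord 2 all lay above the 2 deeper arm cord libraries for 10.6% of 13199 genes and all below them for 29.7%. Genes are not independent replicates, so these correlations are descriptions.

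**Figure D1:**
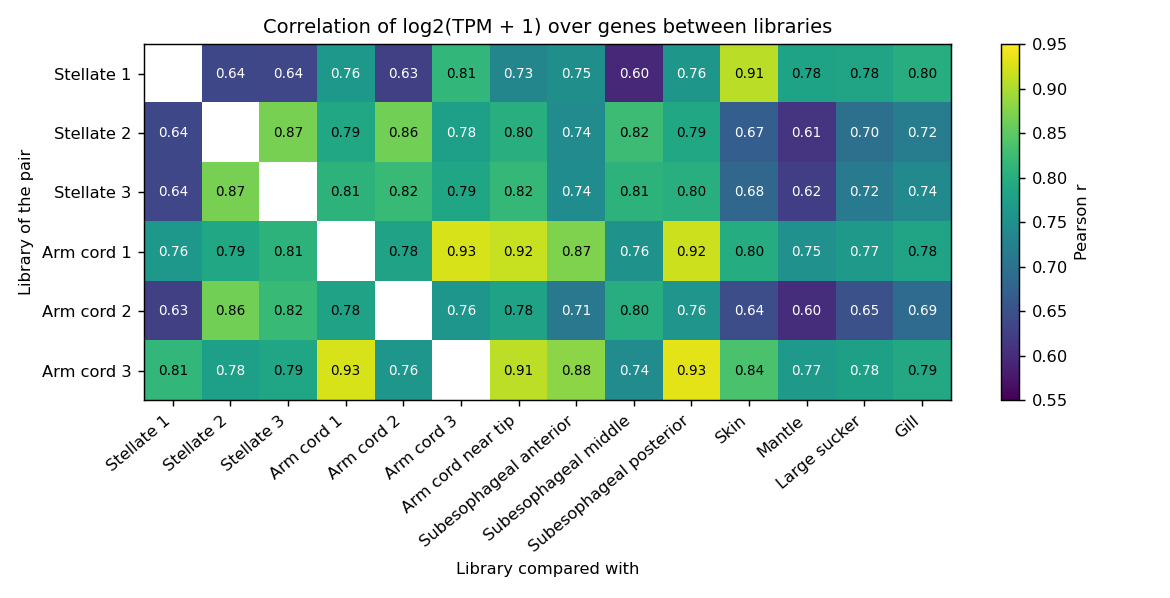
Pearson correlation of log2(TPM + 1) over all genes between each of the 6 libraries (vertical axis) and the same 6 plus 8 single-library tissues (horizontal axis). The top line shows the library labelled stellate ganglion 1 closest to skin at 0.91 and at 0.64 with stellate 2 and 3, and arm cord 2 is closer to stellate 2 (0.86) than to arm cord 1 (0.78).

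The labels were checked with gene lists of 50 genes each, drawn from plate libraries outside the comparison. A neural list held genes high in all 13 other neural tissues with 3 libraries and low in skin, mantle, buccal muscle, large sucker, blood and gill. Its summed level was 199 TPM in stellate 1, 6919 TPM in stellate 2 and 7190 TPM in stellate 3. In arm cord 1, 2 and 3 it was 6155, 14717 and 5779 TPM. The sum in stellate 1 was therefore far below the other 5 libraries, where it ran from 5779 to 14717 TPM, while the means of the 13 other neural tissues ran from 11744 to 31394 TPM. A skin list, of genes high in skin and low in those tissues, showed the opposite order. It summed to 9665 TPM in stellate 1, to 405 and 534 TPM in stellate 2 and 3, and to 718, 1007 and 2170 TPM in the arm cord. Of the 50 neural genes 43 were above 0 in stellate 1, against 46 to 50 in each of the other 5. The library labelled stellate ganglion 1 thus goes against its label by both lists, and calls are given with and without it.

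**Figure D2:**
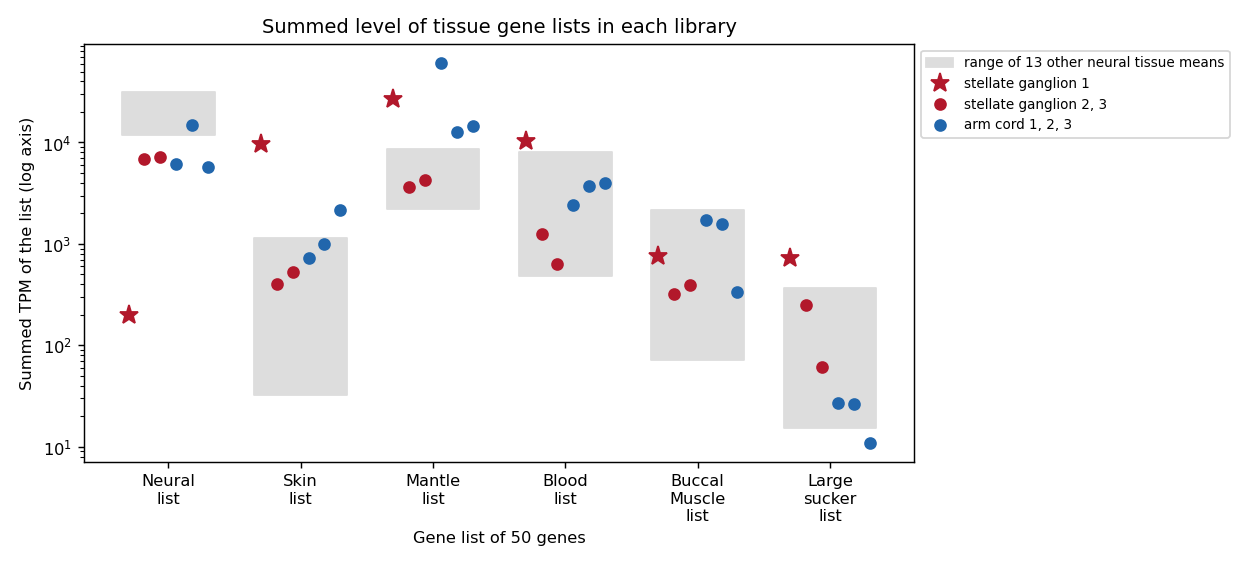
Summed TPM (log axis) of 6 lists of 50 genes in each library, with the range of the 13 other neural tissue means in grey. Stellate 1 (star) is lowest on the neural list at 199 TPM and highest on the skin list at 9665 TPM, and the 3 arm cord libraries exceed stellate 2 and 3 on the mantle list.

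A list of mantle genes separated stellate 2 and 3 from the arm cord. It summed to 3667 and 4254 TPM in stellate 2 and 3 and to 60754, 12656 and 14672 TPM in arm cord 1, 2 and 3. Stellate 1, at 26847 TPM, lay within the arm cord range and above arm cord 2 and 3. The mantle library itself, which is mostly muscle, stood at 364924 TPM, and the other neural tissues at 2195 to 8588 TPM. The arm cord libraries therefore carried more transcripts of this list than stellate 2 and 3 did, and more than any mean of the other neural tissues. The list was chosen against neural tissues alone, so its genes need not mark mantle. LOC106874109 was highest in the mantle library, at 299 TPM. LOC106882623 was at 1014 TPM in the systemic heart output against 322 TPM in mantle. LOC106883103 (143 against 46.3 TPM) was also highest in that heart part, and LOC106877301 in the aorta (90.3 against 48.3 TPM). The blood list summed to 1264 and 635 TPM in stellate 2 and 3 and to 2399, 3703 and 4006 TPM in the arm cord. The part of such non-neural RNA in the gene differences below was not tested.

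Few genes differed beyond the spread between libraries. The test was limma on log2(TPM + 1), fitted over the 45 libraries of the 15 neural tissues with 3 libraries each so that all tissues share 1 estimate of the spread. A gene was called when its Benjamini-Hochberg adjusted p was under 0.05 and its log2 difference was 1 or more in either direction. With all 6 libraries, 24 of 13346 genes tested were called (0.18%), 12 higher in the stellate ganglion (0.0899%) and 12 lower (0.0899%). Without stellate 1, 43 of 13199 were called (0.326%), 15 higher (0.114%) and 28 lower (0.212%). Between the comparisons 16 genes were shared, 5 higher and 11 lower. A further 27 were called only without stellate 1 and 8 only with it. At an unadjusted p under 0.05, 660 genes passed with stellate 1 (4.95%) and 995 without it (7.54%).

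The count depended on the pooled spread: fitted on the 6 libraries of the pair alone, limma called 0 genes, with 282 at an unadjusted p under 0.05, and without stellate 1 again 0, with 871. limma's voom on the recovered reads of the same neural libraries called 62 genes with stellate 1 and 0 without it, with 1030 at an unadjusted p under 0.05. Of the genes called without stellate 1, 34.9% were higher in the stellate ganglion, against 59.0% with quantile scaling and 13.6% on the deposited scale. The count also depended on single libraries. With all 6 the count fell to 7 without arm cord 1 and to 12 without arm cord 3, and was 44 without stellate 3 and 43 without stellate 1. Starting from the 5 libraries it rose to 101 without arm cord 2. The groups did not overlap at all for 721 genes with stellate 1 (5.4%), 221 of them with every stellate library above (1.66%) and 500 with every one below (3.75%). Without stellate 1 this held for 2582 genes (19.6%), with 852 above (6.46%) and 1730 below (13.1%). As a yardstick of depth, the 3 shallow libraries and arm cord 1 and 3 did not overlap for 40.3% of the same genes.

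**Figure D3:**
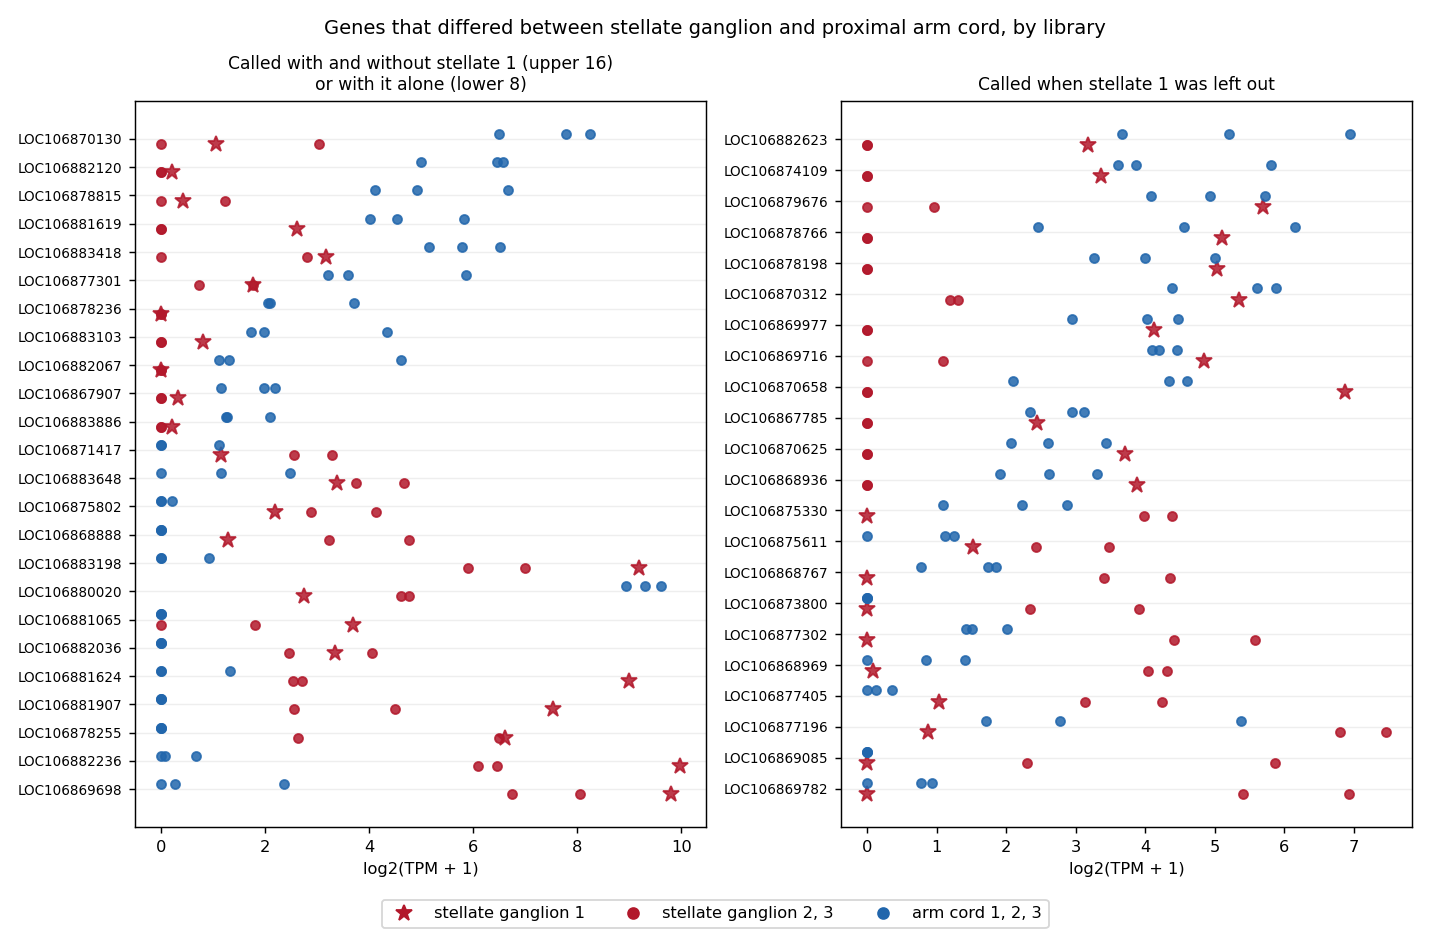
log2(TPM + 1) in each of the 6 libraries (stars: stellate 1; red circles: stellate 2 and 3; blue circles: arm cord) for the 16 genes called with and without stellate 1 and the 8 called with it alone (left), and for 22 of the 27 genes called without it (right). In the left panel the stellate libraries lie on one side of the arm cord for 23 of the 24 genes, the exception being LOC106881065 with stellate 3 at 0 like the arm cord; in the right panel it often lies among or beyond the arm cord libraries.

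The 5 genes higher in the stellate ganglion in both comparisons were near 0 in the arm cord. LOC106883198 led them. It was at 584, 126 and 58.6 TPM in stellate 1, 2 and 3 and at 0.8905, 0 and 0 TPM in arm cord 1, 2 and 3. Every stellate library lay far above every arm cord library. The difference was 7.05 ± 1.20 (log2, SE; adjusted p = 0.00487 in limma), and 6.14 ± 1.30 without stellate 1 (adjusted p = 0.0141). Stellate 1, the library with the skin-like profile, held the highest value.

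The other 4 were lower in level. LOC106868888 stood at 1.45, 8.32 and 26.4 TPM in stellate 1, 2 and 3 and was at 0 in all 3 arm cord libraries. Stellate 2 and 3 averaged at least 5.88-fold higher than the arm cord, taking a floor of 3 reads in each arm cord library (adjusted p = 3.48e-04 without stellate 1 and 0.0119 with it, in limma). LOC106875802 was at 3.59, 6.36 and 16.5 TPM against 0, 0 and 0.166 TPM, a difference of 2.99 ± 0.53 (adjusted p = 0.00506 in limma), and of 3.43 ± 0.57 without stellate 1 (adjusted p = 9.73e-04). In each of these the 2 stellate libraries that look neural were above stellate 1, and neither group overlapped the other. LOC106883648 reached 9.42, 24.5 and 12.4 TPM against 4.55, 0 and 1.24 TPM (2.72 ± 0.52, adjusted p = 0.0114 in limma, and 0.00455 without stellate 1). LOC106871417 reached 1.23, 4.896 and 8.78 TPM against 1.18, 0 and 0 TPM (1.96 ± 0.44, adjusted p = 0.0391 in limma, and 0.00144 without stellate 1). For this last gene stellate 1 and arm cord 1 were nearly level.

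With all 6 libraries, LOC106883198 and LOC106875802 stayed called whichever single library was left out (adjusted p at most 0.0174 and 0.0368 in limma). LOC106868888 lost its call without arm cord 1, arm cord 3 or stellate 3 (adjusted p up to 0.121). LOC106883648 lost it without arm cord 2, arm cord 3 or stellate 2 (up to 0.119), and LOC106871417 without arm cord 2, arm cord 3, stellate 2 or stellate 3 (up to 0.234). Starting from the 5 libraries, LOC106868888 kept its call at every omission, and LOC106883198 lost it without arm cord 3, stellate 2 or stellate 3 (up to 0.198). LOC106875802 and LOC106871417 then lost it without stellate 3 (0.0785 and 0.0776), and LOC106883648 without stellate 2 (0.158).

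A further 7 genes were called higher only when stellate 1 was included. They fall outside the rule for named genes and were picked out after their values were seen. LOC106882236 was at 1006, 86.8 and 67.6 TPM in stellate 1, 2 and 3 and at 0.585, 0 and 0.0611 TPM in the arm cord. LOC106869698 was at 885, 263 and 106 TPM against 4.15, 0 and 0.2001 TPM. For both, stellate 2 and 3 were already more than an order of magnitude above every arm cord library, and stellate 1 was higher again. The differences were 7.26 ± 1.44 and 7.32 ± 1.57 with stellate 1 (log2, SE; adjusted p = 0.0114 and 0.0256 in limma). They were 6.03 ± 1.56 and 6.52 ± 1.75 without it (adjusted p = 0.0818 and 0.103).

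In LOC106878255 stellate 1 and 3 were high and stellate 2 low, at 96.6, 5.18 and 89.5 TPM, with 0 throughout the arm cord. LOC106881907 was highest in stellate 1, at 183, 4.898 and 21.5 TPM, also against 0. LOC106881624, which RefSeq lists as a non-coding RNA and which is in the mantle list, rested on stellate 1 with 508 TPM against 4.79 and 5.51 TPM in stellate 2 and 3 and 1.497 TPM in arm cord 3. The adjusted p of these 3 genes was 0.04499, 0.0114 and 0.0114 in limma with stellate 1, and 0.141, 0.103 and 0.0609 without it. The last 2, LOC106882036 and LOC106881065, did not exceed 15.5 and 11.98 TPM in any of the 6. Their adjusted p was 0.0256 and 0.04996 in limma with stellate 1. Without stellate 1 LOC106882036 was at 0.0536, and LOC106881065 was too low to be tested.

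Leaving stellate 1 out added 10 higher genes. LOC106869782, which RefSeq lists as a pseudogene, was at 121 and 41.1 TPM in stellate 2 and 3 and at 0.914, 0 and 0.716 TPM in arm cord 1, 2 and 3, while stellate 1 was at 0. Stellate 2 and 3 were thus far above all arm cord libraries and stellate 1 was not. The difference without stellate 1 was 5.59 ± 0.81 (log2, SE; adjusted p = 1.84e-04 in limma), and with it 3.54 ± 0.97 (adjusted p = 0.158). LOC106877196 had the highest levels of the 10, 111 and 176 TPM in stellate 2 and 3 against 5.84, 40.3 and 2.27 TPM, with 0.8399 TPM in stellate 1. Of the arm cord libraries the shallow arm cord 2 was closest to them. Its difference was 3.85 ± 0.58 (adjusted p = 3.48e-04 in limma), and against arm cord 2 alone it was 1.77 (adjusted p = 0.362).

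LOC106869085 and LOC106873800 were at 0 in stellate 1 and in the whole arm cord. LOC106869085 stood at 3.94 and 57.5 TPM in stellate 2 and 3, an average at least 16.5-fold higher than the arm cord floor of 3 reads a library (adjusted p = 0.0234 in limma). Nearly all of it came from stellate 3. LOC106873800 stood at 14.03 and 4.04 TPM, at least 1.82-fold higher (adjusted p = 3.48e-04 in limma). These 2 values rest on 4 reads and 1 read, and the bound sets a floor for the arm cord alone. In arm cord 2, as shallow as they are, 3 reads would be worth 12.6 TPM. LOC106877405 was at 7.75 and 17.9 TPM against at most 0.286 TPM in the arm cord. The remaining 5 were present in the arm cord at low level. LOC106868969 stood at 15.4 and 18.8 TPM in stellate 2 and 3 against 0.799, 0 and 1.65 TPM. LOC106877302 stood at 20.2 and 46.6 TPM against 1.68, 3.03 and 1.84 TPM. LOC106868767, LOC106875611 and LOC106875330 had stellate 2 and 3 values between 4.39 and 19.8 TPM and arm cord values up to 6.33 TPM. Their differences were 2.42 ± 0.57, 2.17 ± 0.43 and 2.12 ± 0.40 (adjusted p = 0.0423, 0.00692 and 0.004501 in limma). With stellate 1, the 9 genes other than LOC106869782 had fitted differences from 0.72 to 2.72 and adjusted p from 0.0883 to 1.

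Among these 10, LOC106869782 and LOC106877196 kept their calls at every omission of a further library (adjusted p at most 0.0151 and 0.0158 in limma). LOC106868767 was lost without arm cord 1, arm cord 3, stellate 2 or stellate 3 (adjusted p up to 0.433). LOC106869085 was lost without arm cord 1, arm cord 3 or stellate 3 (up to 0.887), and LOC106868969 without arm cord 2, stellate 2 or stellate 3 (up to 0.1799). LOC106877302 was lost without arm cord 1 or stellate 3 (up to 0.326) and LOC106875330 without arm cord 3 or stellate 3 (up to 0.0902). LOC106877405 and LOC106875611 were lost without stellate 3 (up to 0.195 and 0.364), and LOC106873800 without stellate 2 (0.0647).

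Of the 11 genes lower in the stellate ganglion in both comparisons, 5 were well expressed in the arm cord. LOC106870130 was at 1.08, 0 and 7.16 TPM in stellate 1, 2 and 3 and at 301, 89.4 and 219 TPM in arm cord 1, 2 and 3. LOC106882120 was at 0.165, 0 and 0 TPM against 93.9, 30.8 and 86.5 TPM. For both, all 3 stellate libraries, stellate 1 included, lay far below all arm cord libraries. The difference for LOC106870130 was -6.15 ± 1.20 (log2, SE; adjusted p = 0.0114 in limma) and -5.99 ± 1.35 without stellate 1 (adjusted p = 0.0278). That for LOC106882120 was -5.93 ± 1.23 (adjusted p = 0.0164 in limma), and stellate 2 and 3 were at least 7.65-fold lower than the arm cord at a floor of 3 reads in each (adjusted p = 0.03297).

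LOC106878815 stood at 0.337, 0 and 1.34 TPM in the stellate libraries and at 29.2, 101 and 16.2 TPM in the arm cord (-4.68 ± 0.81, adjusted p = 0.00487 in limma, and 0.00692 without stellate 1). Here the shallow arm cord 2 was the highest library. LOC106883418 stood at 8.04, 0 and 6.04 TPM against 54.03, 34.6 and 90.5 TPM (-3.82 ± 0.76, adjusted p = 0.0114 in limma, and 0.00354 without stellate 1). LOC106881619 stood at 5.12, 0 and 0 TPM against 55.5, 15.2 and 22.2 TPM, with stellate 2 and 3 at least 5.31-fold lower (adjusted p = 0.00692 in limma, and 0.04595 with stellate 1). The groups did not overlap in any of these 5.

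The other 6 were low in the arm cord or carried by 1 library. Their adjusted p in limma ran from 0.00487 to 0.0273 with stellate 1 and from 0.0018 to 0.0304 without it. LOC106877301 and LOC106883103, both in the mantle list, were highest in arm cord 1, at 57.1 and 19.4 TPM. In arm cord 2 and 3 LOC106877301 was at 11.00 and 8.24 TPM, and in stellate 1, 2 and 3 at 2.402, 0.657 and 2.42 TPM. LOC106883103 was at 2.95 and 2.31 TPM in arm cord 2 and 3 and at 0.7398, 0 and 0 TPM in the stellate ganglion. Both were thus low in all 3 stellate libraries, stellate 1 included, although its mantle-list sum was above that of arm cord 2 and 3. LOC106882067 was at 23.5 TPM in arm cord 2 but 1.16 and 1.48 TPM in arm cord 1 and 3, with 0 in the stellate ganglion. LOC106878236, LOC106867907 and LOC106883886 averaged less in the arm cord than 3 reads are worth in stellate 2 and 3, where they stood at 0, so a difference from those 2 libraries was not detectable at their depth. Against stellate 1, which is deep, the arm cord libraries were higher in all 3: LOC106878236 was at 0 there, LOC106867907 at 0.256 TPM and LOC106883886 at 0.158 TPM.

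Single libraries carried several of these calls. With all 6 libraries, LOC106878815 and LOC106883886 stayed called at each omission that could be tested (adjusted p at most 0.0288 and 0.0107 in limma). For LOC106883886 only 3 of the 6 omissions could be tested, and only 2 of 5 without stellate 1. LOC106870130, LOC106882120 and LOC106883418 were lost without arm cord 1, arm cord 3 or stellate 2 (adjusted p up to 0.0975, 0.147 and 0.135). LOC106881619 was lost without arm cord 1, arm cord 3, stellate 2 or stellate 3 (up to 0.351), and LOC106867907 without arm cord 1, arm cord 2, stellate 2 or stellate 3 (up to 0.206). LOC106877301 was lost without arm cord 1 or stellate 2 (up to 0.325), LOC106883103 without arm cord 1 (0.0975), LOC106882067 without arm cord 2 (0.143) and LOC106878236 without arm cord 3 (0.0859). Starting from the 5 libraries, LOC106883103 and LOC106883886 kept their calls at each omission that could be tested (adjusted p at most 0.03797), and LOC106878815 and LOC106883418 lost theirs without stellate 2 (0.192 and 0.316). The other 7 lost theirs in 2 to 4 of the omissions.

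LOC106880020 was the 1 gene called lower only with stellate 1, again picked out after its values were seen. It was abundant in the arm cord, at 628, 485 and 783 TPM, and present in the stellate ganglion at 5.72, 26.2 and 23.5 TPM. The 2 neural-looking stellate libraries were close to each other and far below all 3 arm cord libraries. The difference was -5.24 ± 1.02 (adjusted p = 0.0114 in limma) and -4.59 ± 1.13 without stellate 1 (adjusted p = 0.0609).

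Without stellate 1, 17 more genes were lower in the stellate ganglion, and stellate 1 itself often sided with the arm cord. LOC106882623 led them at 122, 35.7 and 11.7 TPM in arm cord 1, 2 and 3, with 0 in stellate 2 and 3 and 8.01 TPM in stellate 1. Stellate 2 and 3 were at least 9.99-fold lower than the arm cord (adjusted p = 0.0271 in limma). LOC106874109 was at 55.1, 13.6 and 11.2 TPM, again with 0 in stellate 2 and 3, and 9.32 TPM in stellate 1 (at least 3.64-fold lower, adjusted p = 0.00144 in limma). Both belong to the mantle list and were highest in arm cord 1. With stellate 1, the 17 had fitted differences from -4.21 to -0.59 and adjusted p from 0.0605 to 1 in limma.

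A set of 4 named genes was held by all 3 arm cord libraries, the shallow arm cord 2 included. LOC106870312 stood at 57.7, 19.9 and 47.5 TPM against 1.28 and 1.47 TPM in stellate 2 and 3 (-4.04 ± 0.93, adjusted p = 0.0312 in limma). LOC106869716 stood at 17.3, 16.1 and 20.9 TPM against 1.12 and 0 TPM (-3.71 ± 0.86, adjusted p = 0.03297 in limma). In stellate 1 these 2 were at 39.7 and 27.7 TPM, within the arm cord range or above it. LOC106879676 stood at 29.4, 15.9 and 51.5 TPM against 0 and 0.952 TPM, with 50.6 TPM in stellate 1 (-4.42 ± 0.92, adjusted p = 0.0119 in limma). LOC106869977 stood at 6.73, 21.2 and 15.2 TPM against 0 and 0 TPM, at least 3.53-fold lower (adjusted p = 3.78e-04 in limma), with 16.5 TPM in stellate 1.

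LOC106878766, a gene of the skin list, was at 22.5, 4.502 and 70.00 TPM in the arm cord, 0 in stellate 2 and 3 and 33.4 TPM in stellate 1. In the skin library it was at 485 TPM, and its order over the arm cord libraries did not follow the skin list in arm cord 2. LOC106870658 was at 19.2, 3.29 and 23.3 TPM, 0 in stellate 2 and 3 and 116 TPM in stellate 1, the highest of the 6. LOC106878198 was at 8.64, 31.1 and 14.9 TPM, where 0 in stellate 2 and 3 allows only an arm cord excess of at least 1.09-fold. Stellate 1 held it at 31.6 TPM. The last 3 named genes were low. LOC106867785 and LOC106870625 reached 7.64 and 9.77 TPM at most in the arm cord and were at 0 in stellate 2 and 3, at least 2.79-fold and 2.09-fold lower. Stellate 1 held them at 4.42 and 12.1 TPM, within the arm cord range and above it. Their fitted differences had adjusted p = 5.49e-04 and 1.99e-06 in limma, and 0.0852 and 0.430 with stellate 1. LOC106868936, at up to 8.85 TPM, averaged less than 3 reads are worth in stellate 2 and 3, so its difference was not detectable at their depth. In stellate 1 it was at 13.8 TPM, above every arm cord library.

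Over all 28 genes lower without stellate 1, stellate 2 and 3 were both at 0 for 20, and for 6 of these the arm cord mean was under the worth of 3 reads there. Stellate 1 lay below every arm cord library for 13 of the 28 and above every one for 8. The fitted difference of a gene at 0 in both stellate libraries depends on the value of 1 TPM added before taking logs and is no bound, which is why floors are used above. The fitted median over all genes was -0.29 without stellate 1 and -0.06 with it. With genes at 0 throughout a tissue set at their bound, it was 0 in both.

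Calls among the 12 named genes of the last group were also uneven. LOC106874109, LOC106869977, LOC106867785, LOC106870625 and LOC106868936 were kept at each omission that could be tested (adjusted p at most 0.0321, 0.0158, 0.01795, 2.70e-04 and 0.0324 in limma). For LOC106870625 only 2 of the 5 omissions could be tested. LOC106870312, LOC106869716 and LOC106878766 were lost without arm cord 1, arm cord 3, stellate 2 or stellate 3 (adjusted p up to 0.2296, 0.482 and 0.289). LOC106882623 was lost without arm cord 1, stellate 2 or stellate 3 (up to 0.221) and LOC106879676 without arm cord 3, stellate 2 or stellate 3 (up to 0.205). LOC106878198 and LOC106870658 were lost without stellate 2 or stellate 3 (up to 0.104 and 0.0788).

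Arm cord 2 is the 1 arm cord library as shallow as stellate 2 and 3. Stellate 2 and 3 were set against arm cord 2 alone in an alternative chosen after seeing the data. Of the 15 higher genes 9 were called higher there, beside 0.0763% of all genes. Of the 28 lower genes 23 could be tested and 8 were called lower, beside 0.397% of all genes, while the other 5 were too low to be tested. These 3 libraries also chose the genes. For 42 of the 43 the groups did not overlap, so the direction against arm cord 2 was fixed by the choice and is no check of depth. The lone arm cord library is assumed in this fit to vary like the other tissues. LOC106878815 was called lower there, at -6.05 (adjusted p = 0.00556 in limma), as was LOC106869977 at -4.47 (adjusted p = 0.00144). LOC106882120 and LOC106870130 were at -4.99 and -4.98 and were not called (adjusted p = 0.5604 and 0.517). Among the higher genes LOC106869782 was called at 6.16 (adjusted p = 0.00187 in limma), while LOC106883198 was at 6.44 (adjusted p = 0.137).

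Taking the tissue lists gene by gene, 4 of 45 mantle-list genes tested were lower without stellate 1, beside 0.212% of all genes, and none higher, with a median difference of -2.43 (-2.22 with genes at 0 set at their bound). The 4 were LOC106882623, LOC106874109, LOC106877301 and LOC106883103. At an unadjusted p under 0.05, 30 of the 45 passed, beside 7.54% of all genes. limma's voom on recovered reads called 0 of 42 mantle-list genes without stellate 1, with 22 at an unadjusted p under 0.05, and 6 of 43 with it. Of the skin list, 1 of 33 was lower, LOC106878766, with a median of 0. With stellate 1, 46 mantle-list genes were tested, LOC106877301 and LOC106883103 were lower and LOC106881624 was higher. In the neural list limma called 0 of 50 genes, with a median of 0.41 without stellate 1 (1 gene at an unadjusted p under 0.05) and -1.11 with it (9 genes). The medians over all genes were -0.29 and -0.06. voom called 0 and 2 of the neural genes. Of the blood, buccal muscle and large sucker lists limma called 0 genes in both comparisons, and voom also called 0. Without stellate 1, an unadjusted p under 0.05 was reached by 13 of 48 blood genes, 3 of 36 buccal muscle genes and 5 of 30 large sucker genes, beside 7.54% of all genes. With stellate 1 it was reached by 5 of 48, 6 of 36 and 11 of 31, beside 4.95%.

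Most genes called in the pair were at low level in the other neural tissues, which the test itself favours. For all 15 genes higher without stellate 1, stellate 2 and 3 averaged above each of the other 14 neural tissues with 3 libraries, and the median of the 13 tissues outside the pair was under 1 TPM. For 25 of the 28 lower genes the arm cord mean was the highest of the 15 tissues, and for 22 the median outside the pair was under 1 TPM. The share of all genes with a median under 1 TPM was not counted, so the counts of such medians have no background here. Over all 13199 genes the stellate ganglion was highest for 5.85% and the arm cord for 6.56%. A gene with little spread over the 45 libraries passes the test at a smaller difference, so genes near 0 in the other tissues are at an advantage in it. The 3 lower genes with a higher mean elsewhere were LOC106882120, LOC106870130 and LOC106870312.

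LOC106870130, and LOC106880020 from the comparison with stellate 1, were widespread neural genes that the stellate libraries held at low level. LOC106880020 had a median of 940.2 TPM over the 13 other neural tissues and a lowest tissue mean of 44.3 TPM. All 3 stellate libraries were below that lowest mean. LOC106870130 ran from 9.998 to 1469.6 TPM over those tissues, highest in the dorsal basal lobe, and was at 558 TPM in the arm cord near the tip. LOC106882120 was also low in the stellate libraries but was not widespread, with a median of 8.97 TPM over those tissues. It ran from 0.143 TPM in the right lateral vertical lobe to 252 TPM in the deep medulla of the optic lobe. Among neural tissues with 1 library it was at 0.413 TPM in the inferior buccal ganglion, 2081 TPM in the olfactory lobe and 115 TPM in the arm cord near the tip. For all 3 genes, the near-tip arm cord, a library outside the comparison, was above the proximal mean.

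The leading stellate genes had another distribution. LOC106883198 was highest in the gill (1077 TPM, 1 library) and in the auricle of the branchial heart, which pumps blood through the gill (594 ± 204 TPM, SD, n = 3), and stood at 0.641 TPM in the median of the 13 other neural tissues. LOC106882236 had its highest levels in the auricle (1863 ± 1310 TPM, SD, n = 3), the gill (1483 TPM) and the large sucker (1269 TPM). LOC106869698 was highest in the large sucker (2533 TPM) and the gill (2356 TPM), followed by skin (1822 TPM). None of the 3 exceeded 42.7 TPM in the mantle library. LOC106883198 and LOC106882236, at 8.62 and 15.9 TPM in skin, were far higher in stellate 1 than in the skin library that stellate 1 resembles. Of the 12 genes higher with stellate 1, 7 had their highest plate tissue among gill, auricle and suckers, tissues grouped after the leading genes were seen, beside 6.83% of all genes tested. Of the 15 higher without it 4 did and of the 28 lower genes 0, beside 6.69%. Among those 28, 8 were highest in a part of the systemic heart, the aorta or the mantle (6.44% of all genes) and 10 in a neural tissue (43.1%).

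**Figure D4:**
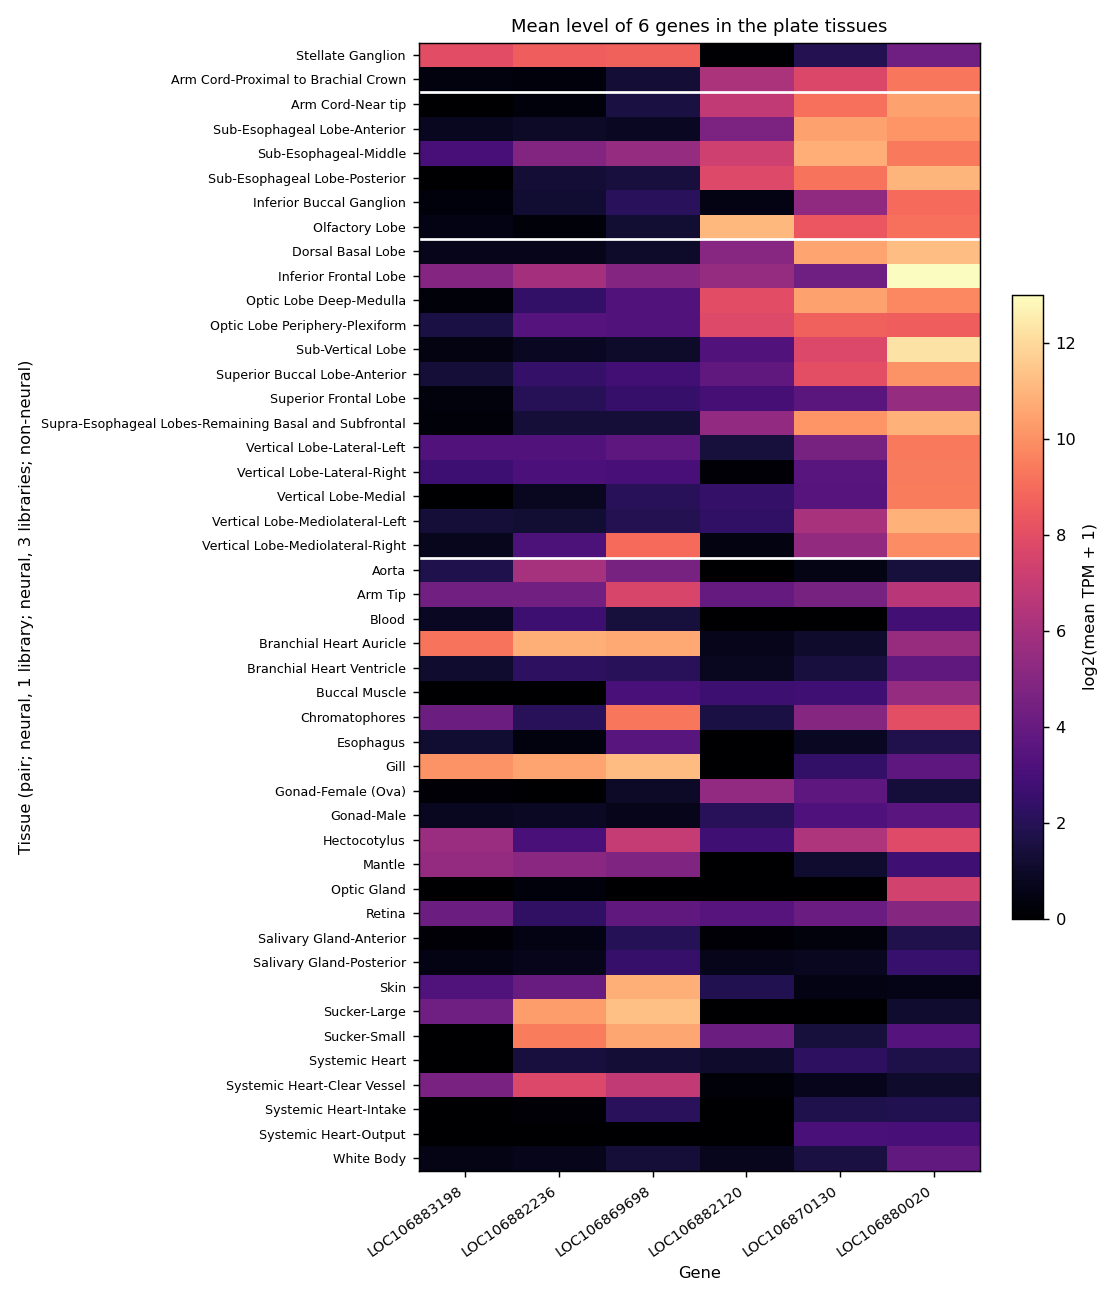
Mean level, log2(mean TPM + 1), of the 3 genes with the largest positive and the 3 with the most negative difference with all 6 libraries, in the 46 plate tissues; white lines separate the pair, neural tissues with 1 library, neural tissues with 3 and non-neural tissues. The first 3 genes are bright in the stellate ganglion, auricle and gill. LOC106870130 and LOC106880020 are bright across most neural tissues but not in the stellate ganglion. LOC106882120 is bright in only part of the neural tissues and dark in the stellate ganglion.

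Single genes of the higher set were strongest in other organs. LOC106868969 was at 1983 TPM in the retina, LOC106877302 at 144 TPM in the posterior salivary gland and LOC106873800 at 186 TPM in the gill. LOC106877196, LOC106869085 and LOC106875330 had their highest plate mean in the stellate ganglion itself, at 95.8, 20.5 and 11.5 TPM with stellate 1 included. Of these, LOC106877196 did not exceed 0.669 TPM in any mean of the 13 other neural tissues. On the lower side LOC106883418 and LOC106878198 were highest in the proximal arm cord itself, at 59.7 and 18.2 TPM, and LOC106868936 in the arm cord near the tip, at 26.7 TPM.

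The second table was scaled separately and holds 1 library each, so genes were compared there by percentile rank over all genes, with no test. Its stellate ganglion ranked above its brachial ganglion, a ganglion at the base of the arm, for 12 of the 15 genes higher without stellate 1 (80%), against 49.0% of all genes tested. With stellate 1, this held for 11 of 12 genes, including all 5 called in both comparisons. Among these 5, levels were low for LOC106868888 (0.883 against 0.298 TPM), LOC106875802 (1.30 against 0.274 TPM) and LOC106883648 (0.0733 against 0.0206 TPM). LOC106871417 was at 13.8 against 0.203 TPM, and LOC106883198 is given below. The lower genes did not show the same order: 14 of 28 ranked lower in the stellate ganglion (50%), against 48.4% of all genes, and 6 of the 12 called with stellate 1. Of the 221 and 500 genes whose 6 libraries did not overlap, 63.8% of those with the stellate ganglion above and 58.6% of those with it below kept that order. Over all genes tested with stellate 1 the shares were 49.2% and 48.2%. Without stellate 1, 63.8% of 852 genes above and 53.4% of 1730 below kept it, against 49.0% and 48.4% of all genes.

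LOC106883198, LOC106869698 and LOC106882236 were the clearest cases. LOC106883198 was at 412 TPM in the second stellate ganglion, percentile 98.04, and at 0 in the brachial ganglion. LOC106869698 was at 315 TPM (percentile 97.5) against 0.1101 TPM (percentile 25.9). LOC106882236 was at 173 TPM (percentile 95.9) against 0.303 TPM (percentile 32.7). These 3 were high in all 4 whole stellate libraries of the series, the deep and skin-like stellate 1 among them. LOC106869782 was at 199 TPM (percentile 96.4) against 1.18 TPM (percentile 45.4). The exceptions among the 15 were LOC106869085, LOC106873800 and LOC106877405, which ranked higher in the brachial ganglion.

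On the lower side, LOC106880020, LOC106870130 and LOC106882120 kept their order. LOC106880020 was at 7.36 TPM in the second stellate ganglion and 546 TPM in the brachial ganglion, percentiles 73.7 and 98.8. LOC106870130 was at 1.16 against 143 TPM, percentiles 53.9 and 95.3. LOC106882120 was at 0.145 against 46.03 TPM, percentiles 32.8 and 88.1. LOC106883418 also kept it, at 2.14 against 30.9 TPM. The mantle-list genes LOC106882623 and LOC106874109 went the other way, at 16.9 against 2.61 TPM and 30.5 against 9.299 TPM. In that table the mantle list itself summed to 10060 TPM in the stellate ganglion and 7818 TPM in the brachial ganglion.

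**Figure D5:**
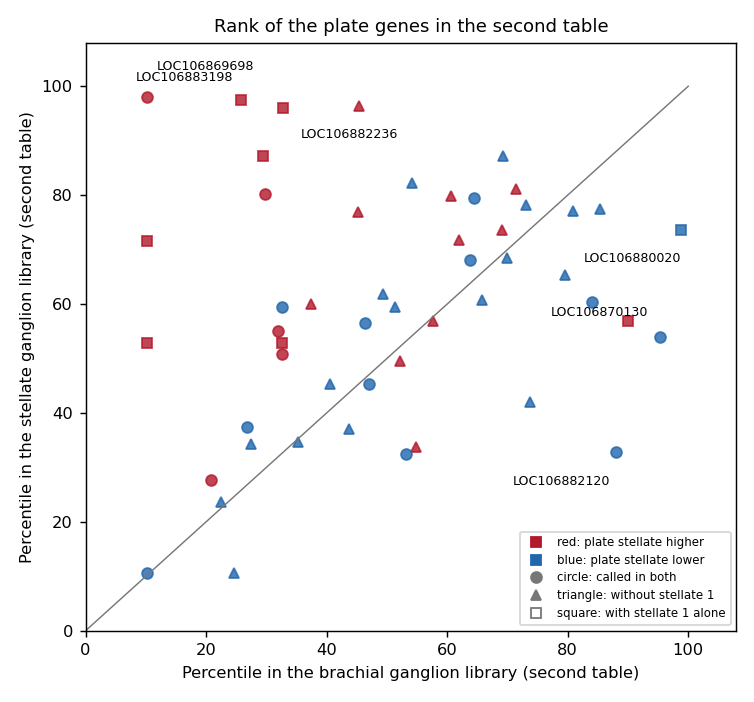
Percentile rank in the second table of the 51 called genes, brachial ganglion on the horizontal axis and stellate ganglion on the vertical axis, with the line of equal rank. Of the genes higher in the plate stellate ganglion (red), LOC106883198, LOC106869698 and LOC106882236 lie near the top left; the genes lower there (blue) lie on both sides of the line, with LOC106882120 and LOC106870130 furthest below it.

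In the single stellate neuron, 5 of the 15 higher and 9 of the 28 lower genes were above 0, against 51.8% of all genes tested. LOC106875330 and LOC106875611 were the most abundant of the higher genes there, at 36.8 and 37.9 TPM. LOC106871417 was at 9.68 TPM and LOC106883198 at 0. Of the lower genes, LOC106878766 reached 42.2 TPM. The neural list summed to 2372 TPM in this library, 2620 TPM in the second stellate ganglion and 6120 TPM in the brachial ganglion, and the skin list to 3082, 1307 and 318 TPM. The single cell library therefore also carried skin-list transcripts.

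The tables hold 18 sequences with a name of their own, of which 9 could be tested and limma called 0 in either comparison. At an unadjusted p under 0.05 the number was also 0, and limma's voom called 0, with 4 at an unadjusted p under 0.05 when stellate 1 was included. With stellate 1 the adjusted p in limma was 1 for all 9. VLPep3 was at 144, 0 and 103 TPM in arm cord 1, 2 and 3 and at 0.497, 0 and 0 TPM in stellate 1, 2 and 3 (log2 difference -4.63 ± 2.75 without stellate 1, adjusted p = 0.756 in limma). The deep arm cord libraries held it and deep stellate 1 almost lacked it. In stellate 2 and 3, 3 reads would be worth 25.7 and 29.7 TPM. Arm cord 2 was at 0 although 3 reads there would be worth 30.9 TPM, well below arm cord 1 and 3. The arm cord libraries thus differed among themselves, and the reason was not tested. In the second table it was at 216 TPM in the brachial ganglion and 0.729 TPM in the stellate ganglion. GNRH, gonadotropin-releasing hormone, was at 14.4, 0 and 14.4 TPM in the arm cord and at 0.501, 0 and 0 TPM in the stellate ganglion (adjusted p = 0.738 in limma without stellate 1). For GNRH, 3 reads would be worth 25.9, 29.9 and 31.1 TPM in stellate 2, stellate 3 and arm cord 2. Its values of 0 there therefore do not show that it was absent.

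Betsin was present in stellate 2 and 3 at 26.7 and 43.1 TPM and in arm cord 1 and 3 at 102 and 107.9 TPM, and was at 0 in stellate 1 and arm cord 2. In the second table it was more abundant in the stellate ganglion (287 TPM) and its neuron (451 TPM) than in the brachial ganglion (76.4 TPM). Sp38 went opposite ways in the 2 tables. On the plate it was at 62.6, 3.999 and 143 TPM in the arm cord and 0.579, 0 and 11.5 TPM in the stellate ganglion, and in the second table at 809 TPM in the stellate ganglion and 113 TPM in the brachial ganglion. Sp12 was at 0, 13.2 and 3.81 TPM in the stellate ganglion against 9.34, 59.5 and 24.3 TPM, and at 285 TPM in the stellate neuron. Insulin1 was highest in stellate 1 at 40.6 TPM, 0 in stellate 2 and 3, and 2.82, 4.06 and 22.2 TPM in the arm cord. Its arm cord mean of 9.70 TPM was under the 10.2 and 11.7 TPM that 3 reads would be worth in stellate 2 and 3. The lowest adjusted p of these 4 without stellate 1 was 0.768 in limma, for Insulin1. APGW and IRELamide2 did not exceed 2.44 TPM, and the other 10 sequences were at 0 in all 6 libraries. Of these 10, only IRELamide1 was above 0 in any plate tissue. AG, AchBP1, AchBP2, AchBP3, Insulin3, NOS, NOXoxygenaseProbeSeq, Sp28 and Sp31 were at 0 in every plate tissue. Their values of 0 therefore say nothing about this pair.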

How the data were processed

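Per the labels' protocols, cDNA was made from RNA of whole tissues and sequenced. The authors deposited TPM values per transcript, in 1 table of 85 plate libraries and 1 of 10 others. The submitters' processing notes name edgeR 3.14.0, featureCounts, STAR 2.3 and Trimmomatic 0.32, and the sources used here give neither their roles nor a genome build.

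The 92 ERCC spike-ins were dropped, columns rescaled to a common total, and each of 17527 gene IDs and 18 named sequences represented by its row of highest mean. Log2(TPM + 1) was tested with limma 3.58.1 (R 4.3.3), with a mean-variance trend and Benjamini-Hochberg adjustment, over 45 libraries of 15 neural tissues, keeping genes that reached 1 TPM in 3 or more libraries. Differences on this scale understate the change of low genes. Scripts were tested on simulated data. A read's worth in TPM was found for 15862 of 17545 rows from their low values, all of those under 100 reads lying within 0.05 of a whole number. Read totals cover these rows only and are lower bounds, and a floor is 3 reads in each library, averaged over the group. Floors cover counting error only.

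Members and lists were chosen with earlier results of these data known. Named genes were up to 12 a direction by largest difference among those called with and without stellate ganglion 1, then up to 12 among those called only without it, the other 5 libraries not overlapping; and the 18 named sequences. The tissue lists take the 50 genes with the largest excess in a tissue, at 20 TPM or more. Of 51 called genes, 47 are in RefSeq's table for assembly ASM119413v2, 45 of them as protein coding. It holds no products or proteins, so lists by protein sequence were not used here. Alternatives were other added constants, filters, scalings, row choices, sample sets, blocks, single omissions, voom on recovered reads and the library of like depth.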

Additional observations from a re-analysis of the deposited data

How the results depend on the processing

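The 24 genes called with all 6 libraries became 15 with 0.5 TPM added before taking logs, 39 with no filter, 12 with a filter at 5 TPM, 44 with quantile scaling, 58 without the sparse library labelled right mediolateral vertical lobe 1 and 62 with voom on recovered reads. With the pair's libraries alone the count was 0 (282 genes at an unadjusted p under 0.05). Leaving out 1 library gave 7 to 44. The 43 genes called without stellate 1 became 71 with 2 TPM added, 67 with no filter, 24 at 5 TPM, 78 with quantile scaling, 66 on the deposited scale, 67 without that vertical lobe library, and 0 with the pair alone (871 unadjusted) or with voom (1030 unadjusted). Leaving out 1 more library gave 31 to 101. Scaling moved the balance of calls: without stellate 1, 34.9% were higher, against 59.0% with quantile scaling and 13.6% on the deposited scale, where the median of all genes went from -0.29 to 0.03 and -0.64. 6 named genes or sequences changed sign in 12 alternatives, in each case called neither there nor in the comparison that the alternative was set against. LOC106868767, LOC106875330 and LOC106877302, which were called without stellate 1, changed sign only in alternatives to the comparison with it. With stellate 1, voom gave -1.86 for LOC106868767 (1.13 in the main comparison), -2.37 for LOC106875330 (0.72) and -0.49 for LOC106877302 (1.68). Leaving out 1 library put LOC106875330 at -0.074 (without stellate 3) to 2.12. Betsin, at -1.07 with all 6, ran from -3.31 to 0.64 as 1 library was left out, above 0 without stellate 1, arm cord 1 or arm cord 3. Without stellate 1 it went from 0.64 to -1.02 on the deposited scale and -0.52 with voom, and ran from -1.60 (without arm cord 2) to 1.78 as 1 more was left out, while voom moved APGW from -0.59 to 1.06 and IRELamide2 from -0.57 to 0.80.

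The labels do not say whether shared replicate numbers pair the libraries. Correlations of same-numbered deviations were 0.17, 0.45 and -0.27. By the letters in the labels' codes they were 0.47, 0.45 and 0.02. With 3 libraries a tissue, such values can neither show nor exclude a pairing. A replicate block over the pair's libraries gave 12 calls with stellate 1, 6 of them shared with the 24, and 20 without it, 2 shared with the 43. A block by letter, whose meaning the labels do not give, gave 61 calls, 9 of them shared with the 24, and 51 without stellate 1, 4 shared with the 43. At the depth of stellate 2 and 3, genes under about 3 reads' worth could not be compared. With all 6 libraries, LOC106883198 was called under 18 of its 19 alternatives. Without stellate 1 it was called under 11 of the 16 alternatives in which it could be tested.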

Other observations

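The most abundant gene of both tissues was the same. LOC106867166 was at 19051 and 52819 TPM in stellate 2 and 3 and at 36633, 18873 and 47841 TPM in arm cord 1, 2 and 3, and at 2152 TPM in stellate 1. The tissues, each as the mean without stellate 1, shared 4 of their 10, 52 of their 100 and 337 of their 500 most abundant genes.

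Several genes abundant in stellate 2 and 3 were far higher in the shallow arm cord 2 than in arm cord 1 and 3. LOC106877184 was at 31541 and 21109 TPM in stellate 2 and 3 and at 23414 TPM in the shallow arm cord 2, but at 2633 and 1841 TPM in arm cord 1 and 3. LOC106869301, LOC106877937 and LOC106869121 were at 29592, 15272 and 10079 TPM in arm cord 2, above both stellate 2 and stellate 3 in each case. In arm cord 1 and 3 these genes did not exceed 3170 TPM. None was called in limma without stellate 1 (adjusted p = 0.745, 0.838, 0.842 and 0.809), nor with it (adjusted p = 1 for all 4).

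Other abundant genes, picked out after their values were seen, did not overlap between the tissues in the 5 libraries, although they were not called. Over all genes tested without stellate 1, 19.6% did not overlap. The part of depth in these values was not tested. LOC106875673 was at 5752 and 11254 TPM in stellate 2 and 3 and at 1411, 1642 and 1250 TPM in arm cord 1, 2 and 3, with 298 TPM in stellate 1 (log2 difference 2.50, adjusted p = 0.502 in limma without stellate 1 and 1 with it). LOC106868909 was at 1548 and 1122 TPM against 4761, 5043 and 9795 TPM, with 3817 TPM in stellate 1 (log2 difference -2.23, adjusted p = 0.224, and 0.603 with stellate 1). LOC106874273 was at 249 and 527 TPM against 20592, 2765 and 2554 TPM, with 701 TPM in stellate 1 (log2 difference -3.85, adjusted p = 0.130, and 0.158 with stellate 1).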
